A study of Mus musculus with 3 samples.

Results

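Collagens and the genes that build the scaffold around them were examined in differentiated iBATs during the first 2 h of isoproterenol (ISO). The set held every gene with a symbol of the collagen form (Col, a number, a, a number) together with 20 named genes of matrix glycoproteins, small proteoglycans, laminins, nidogens and collagen-modifying enzymes. Of these, 60 genes had a probe set with a single gene symbol, and 36 were read, meaning that the brightest probe set of the gene reached 100 on any array, in units of MAS5 signal. They were 36 of 6896 genes read over the whole array. iBATs are brown preadipocytes from the interscapular fat of newborn C57BL/6 mice, immortalized with SV40 large T antigen and differentiated with insulin and indomethacin, and they are 1 cell line in culture without the vessels, leukocytes or nerves of the tissue. All samples were taken on day 8 of differentiation, after 0, 1 and 2 h of ISO, a pan-agonist of β-adrenergic receptors given at 1 μM in the study's legends. There was 1 array per time point and no vehicle kept for 1 or 2 h, so time in culture and ISO cannot be told apart, no replicate error exists and no p-value is given.

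Adipocytes sit in a cage of basement membrane, a sheet of collagen IV, laminins and nidogens, and are tied to one another by fibrils of collagens I, III and V and by beaded filaments of collagen VI. Collagen chains are hydroxylated on proline and lysine in the endoplasmic reticulum, folded into a triple helix with the help of a dedicated chaperone, secreted, trimmed and then cross-linked by lysyl oxidases. Finished fibrils turn over slowly, and preadipocytes and fibroblasts make more of the fibrillar matrix than mature fat cells do.

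None of the 36 matrix genes passed the threshold of 1.74-fold (0.8 on the log2 scale), a size the study used for genes induced at 1 h and not a test, in either direction, neither at 1 h nor at 2 h of ISO. Over all 6896 genes read, 1.58% were called higher and 0.218% lower at 1 h, and 2.73% were called higher and 0.812% lower at 2 h. From 1 h to 2 h no matrix gene was called either, where 0.667% of all genes were called higher and 0.319% lower. Shares of this size leave room for about 1 gene in 36, so a count of 0 does not set the matrix genes apart. The median log2 ratio of the 36 genes was -0.05 at 1 h and -0.09 at 2 h, next to -0.02 and -0.07 over all genes read. Values ran from -0.43 (Col5a3) to 0.29 (P4ha1) at 1 h and from -0.60 (Lum) to 0.62 (P4ha1) at 2 h. At 2 h, 28 of the 36 (77.8%) were within 0.2 of 0 on the log2 scale, and 56.6% of all genes read were. The robust spread of log2 ratios (the scaled median absolute deviation) was 0.13 over the matrix genes and 0.24 over all genes at 2 h. Dim probe sets vary more than bright ones, so the shares were also taken by brightness. Among genes with a mean signal of 500 or more, 20 of 23 matrix genes (87.0%) and 71.7% of all 2060 genes were within 0.2. Among dimmer genes the shares were 8 of 13 (61.5%) and 50.2%. These shares are descriptions of 3 arrays and were not tested.

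**Figure D1:**
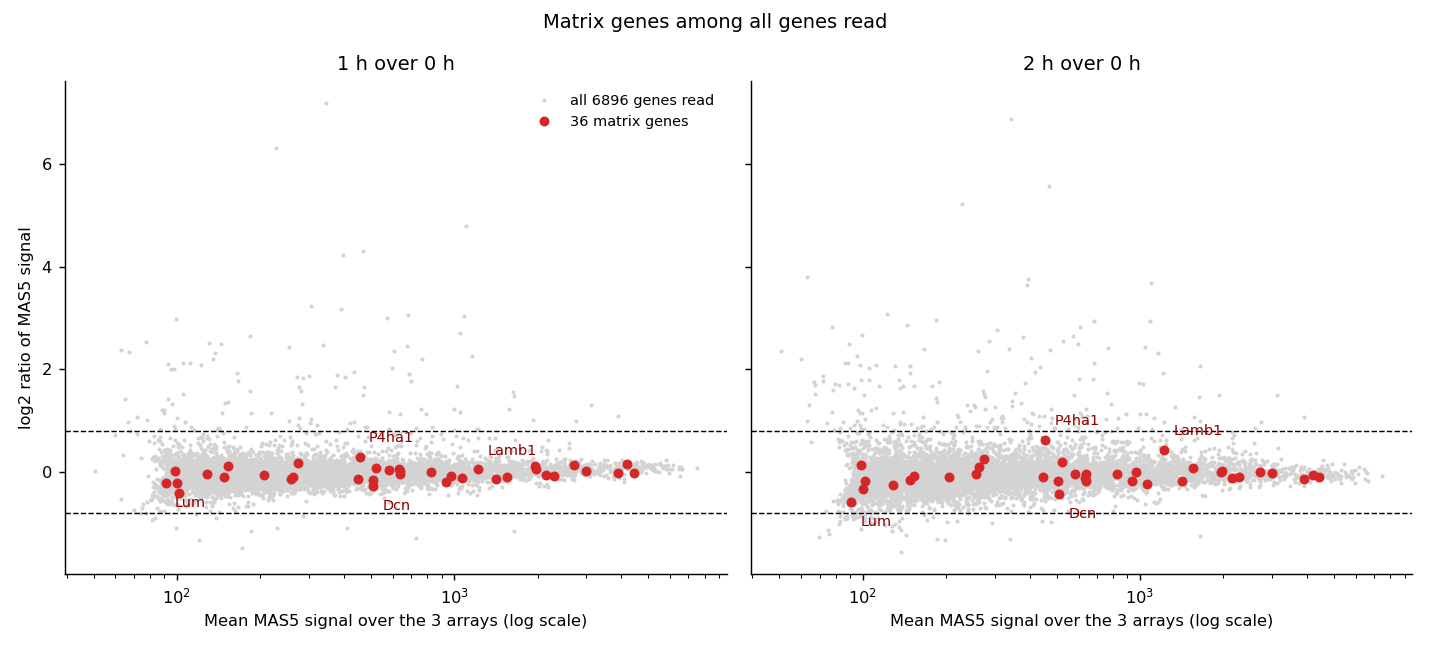
Log2 ratio of MAS5 signal (vertical axis) against the mean signal over the 3 arrays (horizontal axis, log scale) for 1 h over 0 h (left) and 2 h over 0 h (right). Grey points are all 6896 genes read, red points the 36 matrix genes, and dashed lines mark 1.74-fold; all 36 red points lie between the dashed lines at both times.

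The labelled cell type was checked with marker genes. Fabp4, the fatty acid-binding protein of fat cells, had signals of 7490.0, 7871.8 and 7095.6 at 0, 1 and 2 h, and all 7 adipocyte markers on the array were read. At 2 h Adipoq, Lpl, Cidec and Cd36 had log2 ratios of -0.18, -0.10, -0.04 and -0.24, and Pparg and Cebpa had 0.66 and 0.42. All 6 brown adipocyte markers were read too, with sums of 6044.9, 8178.4 and 9161.8. Ucp1, the uncoupling protein of brown fat, was higher at both times (signals of 1485.7, 3673.2 and 4166.1, log2 ratios of 1.31 and 1.49), and Ppargc1a, a coactivator of thermogenic genes, was higher at 2 h (1.81). Of the other brown markers, Cidea, Cox7a1, Cox8b and Prdm16 had 0.40, -0.18, -0.44 and -0.63 at 2 h, and Prdm16 exceeded 100 only at 0 h (107.5). Of 8 skeletal muscle markers 1 was read, the myoglobin gene Mb, with signals of 788.1, 669.7 and 574.3, and the sums were 931.9, 797.7 and 695.6. None of 8 endothelial, 8 macrophage and leukocyte and 6 cartilage and bone markers reached 100, with highest signals of 12.3, 93.2 (Cd14) and 34.8. The sums over the adipocyte, smooth muscle, and preadipocyte and fibroblast markers were 22704.8, 1816.3 and 2441.1 at 0 h, 24451.0, 1846.8 and 2418.7 at 1 h, and 21790.5, 1731.6 and 2536.0 at 2 h. Acta2 and Tagln, of contractile cells and myofibroblasts, were the 2 of 8 smooth muscle and pericyte markers that were read, with log2 ratios of -0.07 and -0.15 at 2 h. Of 9 preadipocyte and fibroblast markers on the array 7 were read. Among them Pdpn, the membrane glycoprotein podoplanin, was higher at 1 and 2 h (log2 ratios 1.35 and 1.66). Twist2, a mesenchymal transcription factor, was higher at 2 h (0.86, or 0.75 with 32 added to every signal, where its call ends). Pdgfra and Pdgfrb, receptors of mesenchymal cells, had -0.00 and -0.45 at 2 h. The others read, Twist1, Dlk1 and S100a4, had -0.24, 0.14 and 0.28 at 2 h. Matrix genes are read here in bulk RNA, in which fewer cells of a type and less RNA per cell cannot be told apart, and the part that these marker shifts have in the values was not tested.

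The collagens read were those of fibrils, of the common basement membrane and of beaded filaments, with few others. Of 42 collagen chains on the array 18 were read, and all 18 other genes on the array were read. The 18 chains were 7 of 11 fibril-forming chains, 3 of 6 of collagen IV, 3 of 5 of collagen VI, 2 of 9 fibril-associated chains (Col12a1 and Col16a1), both multiplexins (Col15a1 and Col18a1) and Col8a1. Chains typical of cartilage were not read. Col2a1, the main cartilage collagen, had a highest signal of 1.8, and Col9a1, Col9a2, Col9a3, Col10a1, Col11a1 and Col11a2 had highest signals between 0.9 and 18.1. Col4a3, Col4a4 and Col4a6, the chains of specialised basement membranes such as those of the kidney, stayed at or below 16.7. The other chains below 100 were Col6a4, Col6a5, Col7a1, Col8a2, Col13a1, Col14a1, Col17a1, Col19a1, Col20a1, Col22a1, Col23a1, Col24a1, Col25a1 and Col26a1. Of all 24 chains not read, 20 stayed below 20. Nearest to the limit from below were Col8a2 (at most 87.2) and Col20a1 (50.9), and nearest from above were Col16a1 (104.5), Lum (108.5), Col15a1 (112.8) and Col5a3 (116.4). Fbn1 was not analysed here, and both probe sets of Loxl2 carry a second gene symbol and were not used. Probe sets differ in how strongly they bind their target, so the signals give the course of each gene and no order of abundance between genes.

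**Figure D2:**
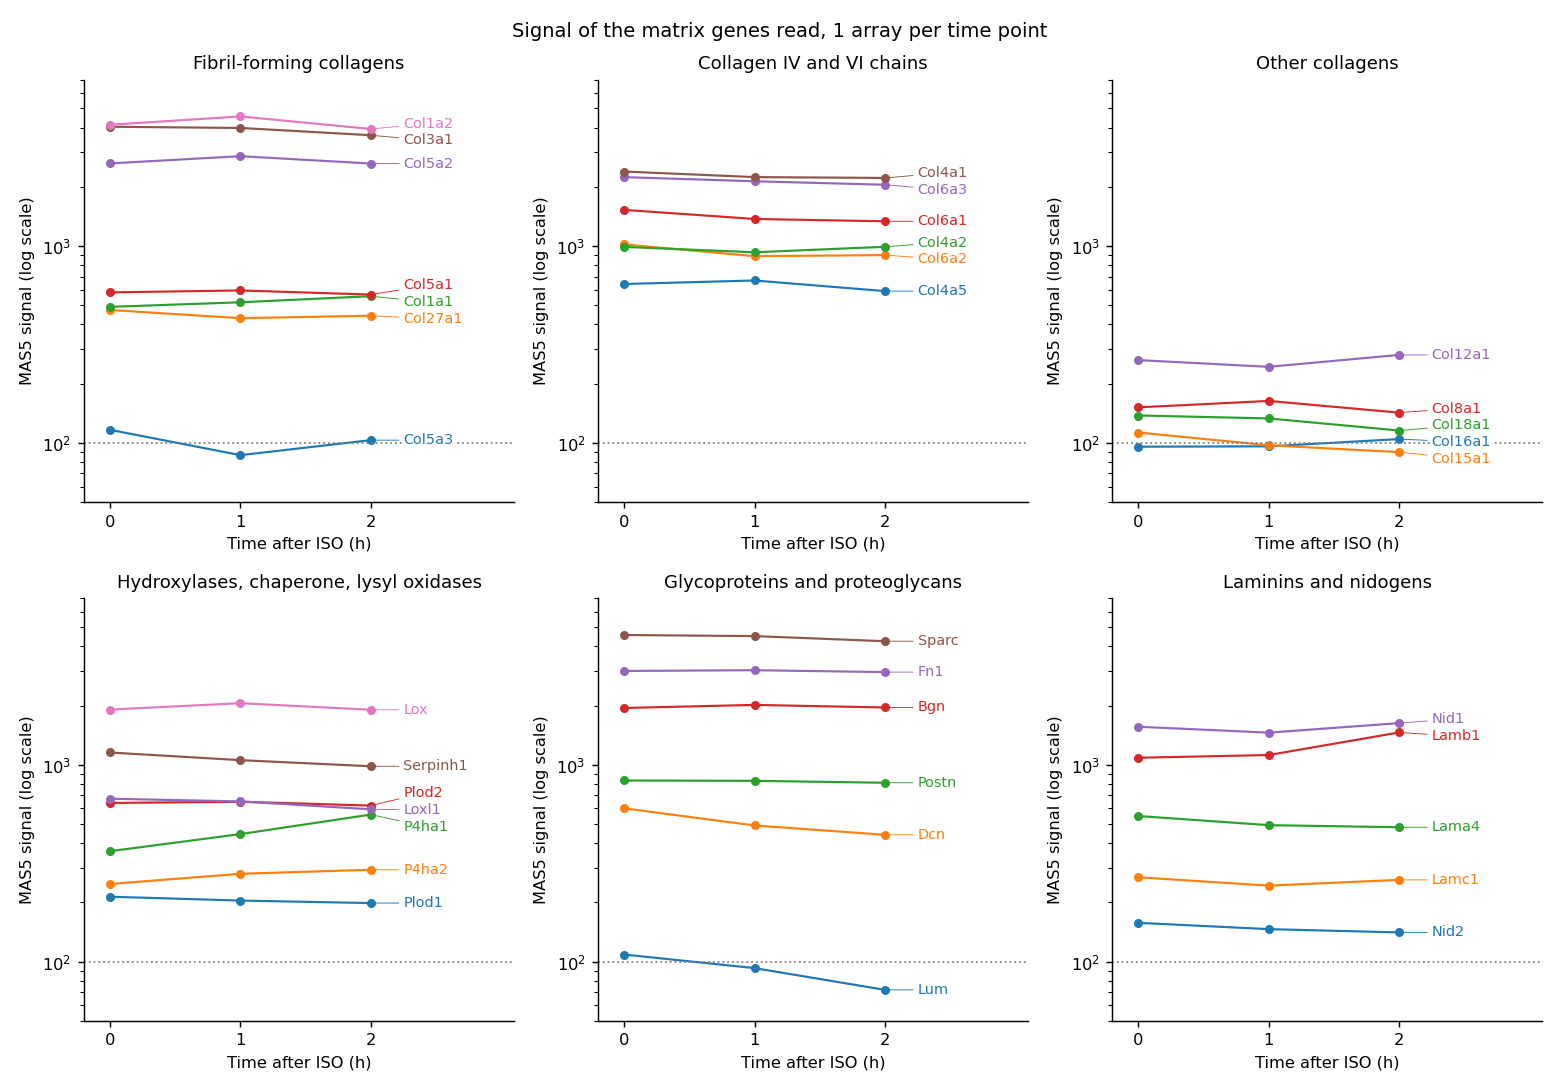
MAS5 signal (vertical axis, log scale) against hours after ISO (horizontal axis) for the 36 matrix genes read, in 6 panels by role, each point from a single array. The dotted line is the signal of 100; most lines are nearly level, with P4ha1 and Lamb1 above and Dcn and Lum below their 0 h signal at 2 h.

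Promoter sequence from RefSeq (GRCm38.p6, 250 bases before to 50 after the annotated start) was matched by symbol for 24 of the 36 genes, in 27 windows. It is shown for the highest genes at 2 h, P4ha1 and Lamb1, for Col1a2 as a bright collagen close to level, and for the collagen IV pair. The first 3 runs are the 250 bases before the start, at chr10:59323046-59323295 (+ strand), chr12:31265043-31265292 (+ strand) and chr6:4505368-4505617 (+ strand). Capitals mark ACGTG, a form of the core of the hypoxia-response element, and CCAAT, each on either strand. The form GCGTG was not searched.
P4ha1: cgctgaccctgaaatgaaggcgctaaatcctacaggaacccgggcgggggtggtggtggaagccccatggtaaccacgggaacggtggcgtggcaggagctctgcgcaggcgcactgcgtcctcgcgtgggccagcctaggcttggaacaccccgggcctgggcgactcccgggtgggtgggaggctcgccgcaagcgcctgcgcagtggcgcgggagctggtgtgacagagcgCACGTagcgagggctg
Lamb1: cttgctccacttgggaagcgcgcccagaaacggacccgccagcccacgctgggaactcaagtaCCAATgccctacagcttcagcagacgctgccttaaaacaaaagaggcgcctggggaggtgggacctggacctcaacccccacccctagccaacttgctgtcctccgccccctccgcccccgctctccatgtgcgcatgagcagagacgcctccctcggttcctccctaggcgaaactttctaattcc
Col1a2: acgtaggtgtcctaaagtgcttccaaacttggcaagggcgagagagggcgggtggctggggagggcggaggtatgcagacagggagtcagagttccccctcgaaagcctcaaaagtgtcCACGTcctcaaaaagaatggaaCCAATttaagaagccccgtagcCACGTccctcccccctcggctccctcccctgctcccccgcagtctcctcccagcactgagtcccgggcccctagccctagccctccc
Within its 250 bases P4ha1 held 1 ACGTG, Col1a2 held 2 of these and 1 CCAAT, and Lamb1 held 1 CCAAT and no ACGTG. Their GC shares were 69.6% for P4ha1, 62% for Lamb1 and 62% for Col1a2.

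Col4a1 and Col4a2 lie on opposite strands, with annotated starts 21 bases apart, at 11312826 and 11312805. As annotated, each transcript begins by crossing the start of the other, and beyond this overlap the genes run away from each other. Their promoter windows overlap in 78 bases, chr8:11312777-11312854, given on the strand of Col4a2 with GGGCGG, the GC box bound by Sp1-type factors, in capitals.
Col4a1 and Col4a2: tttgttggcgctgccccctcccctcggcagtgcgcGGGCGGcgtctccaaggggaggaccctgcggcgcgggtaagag
The values of the pair are given with the collagen IV chains.

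Over the windows of the matrix genes, searched on both strands, GGGCGG was found in 19 of 27 (70.4%), against 35.7% of all 32851 windows. The 32851 are not limited to genes read, as the 27 are, so the sets differ in more than matrix genes. Col6a2 also counts more than once, and Col4a1 and Col4a2 share a GGGCGG. The difference was not tested. CCAAT was found in 10 of 27 (37.0%), against 37.4%. TATAAA was found in 4 of 27 (14.8%), against 13.6%. The cyclic AMP response element TGACGTCA was in none of the 27 and in 1.79% of all windows, and TGACG, its half-site, was in 2 of 27 (7.41%, Col4a5 and P4ha2), against 20.8%. ACGTG, the form of the hypoxia core that was searched, was in 5 of 27 (18.5%, Col1a2, Col5a1, P4ha1, P4ha2 and Serpinh1), against 19.6%. The half-site lies within the full element and can overlap ACGTG by 3 bases. At 2 h the 5 genes with ACGTG stood at -0.07 (Col1a2), -0.04 (Col5a1), 0.62 (P4ha1), 0.24 (P4ha2) and -0.23 (Serpinh1). A link of ACGTG to these values was not tested. A match of letters is not evidence of a bound site.

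The fibril-forming collagens were close to level. Col1a1 and Col1a2 encode the 2 chains of type I collagen, the main collagen of connective tissue. Col1a2 had signals of 4132.8, 4557.0 and 3934.4 at 0, 1 and 2 h, with log2 ratios of 0.14 and -0.07. Col1a1 had signals of 491.0, 517.9 and 556.2, with log2 ratios of 0.08 and 0.18, and a dimmer probe set of the gene was at -0.11 at 2 h. The 2 chains thus had opposite signs at 2 h on the probe sets used, both within 0.2 of 0. Col3a1, whose product forms mixed fibrils with type I collagen, had signals of 4038.3, 3981.2 and 3657.1 and log2 ratios of -0.02 and -0.14, and its second probe set was at -0.36 and -0.13. Col5a1 and Col5a2, chains of the type V collagen that nucleates fibrils, had 0.03 and 0.12 at 1 h and -0.04 and -0.00 at 2 h. Col5a3, the remaining chain of type V, was dim, with signals of 116.4, 86.6 and 103.2, and its log2 ratio of -0.43 at 1 h was the lowest of all 36 genes at that time and was -0.17 at 2 h. Genes of its brightness had a robust spread of 0.20 at 1 h and 0.27 at 2 h, a spread that contains real change as well as noise. Col27a1, a further fibrillar chain, had -0.14 and -0.10, and its second, dimmer probe set had 0.35 and 0.19.

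Of the 11 collagen chains outside the fibril-forming group, 8 were below 0 h at 2 h, where 61.4% of all genes read were. Col4a1 and Col4a2 encode the chains of the common collagen IV network of basement membranes. Col4a1 had signals of 2391.1, 2240.3 and 2218.7, and Col4a2 had 989.9, 929.8 and 991.4. At 1 h both stood at -0.09 on the log2 scale, and at 2 h they stood at -0.11 and 0.00. A dimmer probe set of Col4a1 had -0.16 at 1 h and -0.36 at 2 h. Col4a5, another chain of the network, had log2 ratios of 0.06 and -0.12. Collagen VI is a heterotrimer of Col6a1, Col6a2 and Col6a3 in most tissues and is well known from the fibrosis of fat tissue. Col6a1 had signals of 1526.8, 1372.8 and 1336.1, Col6a2 had 1018.8, 888.4 and 899.6, and Col6a3 had 2239.4, 2133.4 and 2048.6. All 3 were below 0 h on both later arrays, except that Col6a3 stood at 0.03 at 1 h with the arrays at the same median, and they had log2 ratios of -0.15, -0.20 and -0.07 at 1 h and of -0.19, -0.18 and -0.13 at 2 h. The robust spread of genes as bright as these was 0.17, 0.19 and 0.12 at 2 h. A dimmer probe set of Col6a2 had -0.14 at 1 h and -0.38 at 2 h. Col15a1 and Col18a1, which link basement membranes to the fibrils around them and of which Col18a1 is the source of endostatin, had -0.21 and -0.05 at 1 h and -0.33 and -0.25 at 2 h, from 0 h signals of 112.8 and 137.7. Col15a1 exceeded 100 only at 0 h, and with signals below 100 set to 100 it is at -0.17 at 2 h. A second probe set of Col18a1 stayed below 100, with signals of 84.6, 79.0 and 98.9, and had 0.23 at 2 h. Of the remaining chains Col12a1 and Col16a1, which sit on fibril surfaces, had 0.09 and 0.13 at 2 h, and Col8a1, a short-chain network collagen, had -0.09.

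The enzymes that act on the nascent chain held the highest value of the set. P4ha1 encodes the catalytic subunit of prolyl 4-hydroxylase, which makes the hydroxyproline that stabilises the triple helix. In many cells P4ha1 is a target of hypoxia-inducible factors, and the sequence printed for it held ACGTG, on the other strand, near its end. A part of these factors in its values here was not tested. P4ha1 had signals of 363.7, 444.3 and 558.3 at 0, 1 and 2 h, with a higher value on each later array. Its log2 ratios were 0.29 and 0.62, which is 1.22-fold and 1.54-fold. Its second probe set had signals of 109.3, 126.2 and 144.9 and log2 ratios of 0.21 and 0.41. The robust spread of genes of the brightness of P4ha1 was 0.14 at 1 h and 0.23 at 2 h. At a threshold of 1.5-fold, added after the values were seen, P4ha1 is called higher at 2 h and Lum lower, 1 gene in each direction. Of all genes read, 4.13% are called higher and 3.13% lower at this threshold. Lum was read through the 0 h array alone (signals of 108.5, 92.6 and 71.8), so the filter favours its fall. With low signals raised to the limit for reading, Lum is at -0.12 and is not called, while P4ha1 stays at 0.62. P4ha2, the other catalytic subunit on the list, had signals of 247.8, 279.2 and 292.7 and log2 ratios of 0.17 and 0.24. The lysyl hydroxylases Plod1 and Plod2, which prepare lysines for cross-links, had -0.11 and -0.04 at 2 h. Serpinh1 (HSP47), the collagen-specific chaperone, had signals of 1154.1, 1055.2 and 982.4 and log2 ratios of -0.13 and -0.23, with -0.05 at 2 h on its second probe set. Lox and Loxl1, the lysyl oxidases of collagen and elastin, were at -0.00 and -0.18 at 2 h, and a second probe set of Lox was at -0.27. Of the 5 genes of hydroxylation and folding, the 2 subunits of prolyl 4-hydroxylase were thus above 0 h on both later arrays, Serpinh1 was below 0 h on both, Plod1 was so too except with the arrays at the same median (0.03 at 1 h), and Plod2 was above at 1 h and below at 2 h.

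**Figure D3:**
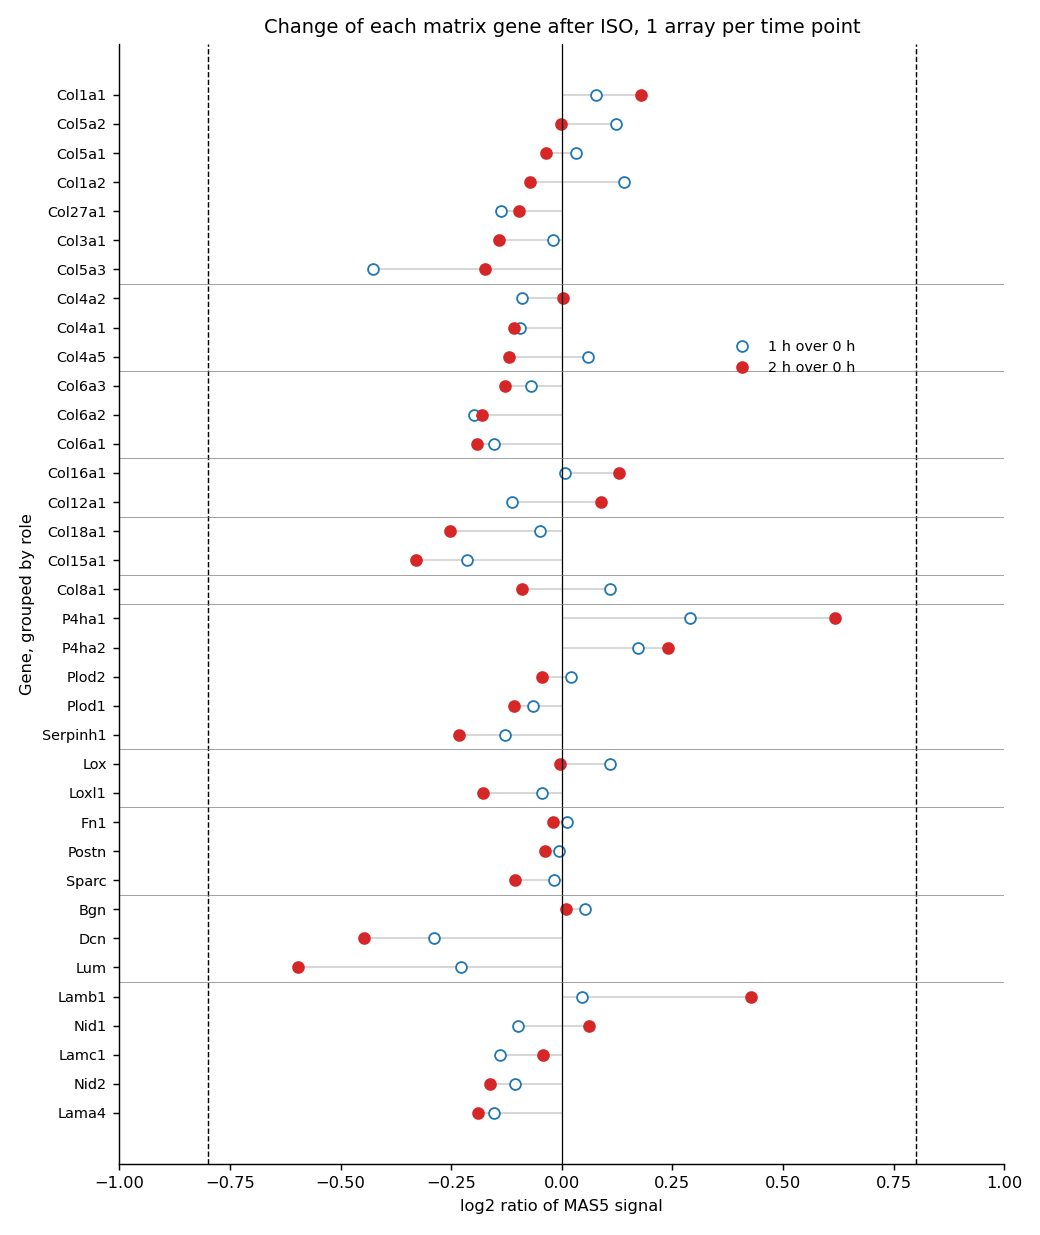
Log2 ratio of MAS5 signal to 0 h (horizontal axis) for each of the 36 matrix genes read (rows, grouped by role between grey lines), at 1 h (open blue) and 2 h (filled red) of ISO, 1 array per time point. Dashed lines mark 1.74-fold, which no point reaches; the farthest points at 2 h are P4ha1 (0.62) and Lum (-0.60).

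The glycoproteins of the scaffold were close to level on their main probe sets. Fn1, fibronectin, on which cells assemble collagen fibrils, had signals of 2996.2, 3022.5 and 2956.8 and log2 ratios of 0.01 and -0.02. Sparc, a collagen-binding matricellular protein, had 4563.5, 4505.4 and 4243.0, and Postn, periostin, had 831.8, 828.5 and 810.0. Their log2 ratios were between -0.11 and -0.01 at both times. The small leucine-rich proteoglycans, which coat collagen fibrils and limit their width, differed among themselves. Bgn (biglycan) had log2 ratios of 0.05 and 0.01, with all 3 of its probe sets between 0.01 and 0.10 at 2 h. Dcn (decorin) had signals of 600.3, 491.4 and 440.6, with a lower value on each later array and log2 ratios of -0.29 and -0.45, which is 0.734-fold at 2 h. Lum (lumican) had signals of 108.5, 92.6 and 71.8 and log2 ratios of -0.23 and -0.60, but it started just above the limit of 100, and with signals below 100 set to 100 its ratio at 2 h is -0.12. The robust spread at 2 h was 0.21 for genes as bright as Dcn and 0.43 for genes as dim as Lum, and each of these genes had 1 probe set in use.

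Lamb1 was the exception among the laminins and nidogens. It encodes the β1 chain that most basement membrane laminins share. Its signals were 1085.5, 1120.4 and 1459.1, so that it was level at 1 h (log2 ratio 0.05) and stood at 0.43 at 2 h, which is 1.34-fold. Its other kept probe sets had signals of 345.4, 361.4 and 551.8 (0.68 at 2 h) and of 87.2, 82.3 and 117.6 (0.43), each with its step in the second hour. Genes of the brightness of Lamb1 had a robust spread of 0.19 at 2 h. Lamc1, the γ1 chain with which it assembles, had log2 ratios of -0.14 and -0.04, and Lama4, an α chain of adipocyte and vessel basement membranes, had signals of 548.8, 493.2 and 481.3 with -0.15 and -0.19. The nidogens Nid1 and Nid2, which bridge laminin and collagen IV, had 0.06 and -0.16 at 2 h. The chains that form laminins together thus had values on both sides of 0.

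Of the 36 genes, 19 (52.8%) were below 0 h on both later arrays, 6 (16.7%) were above on both, and 11 had 1 array on each side or at no difference. Over all genes read the shares below and above on both were 45.2% and 28.0%. These counts depend on the scaling of the arrays: with all arrays at the same median 11 of the 36 were below and 10 above on both, beside 27.5% and 37.3% of all genes. The 6 genes above on both were P4ha1, P4ha2, Lamb1, Col1a1, Col16a1 and Bgn, and all but Bgn were so under each of the 3 other scalings. Of the 36, 19 had 2 or more kept probe sets, and for 17 of these 19 the probe sets were within 0.3 of each other at 2 h, while 13 of 19 had the same sign throughout. The exceptions to 0.3 were Fn1 and Lamc1. A second probe set of Fn1, at signals of 55.7, 64.4 and 108.0, had a log2 ratio of 0.96 at 2 h, past the threshold, and 0.21 at 1 h. When any kept probe set was allowed to pass, Fn1 was the 1 matrix gene called higher at 2 h, where 3.38% of all genes were. The second probe set of Lamc1 had -0.51 at 2 h, where the main one had -0.04.

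**Figure D4:**
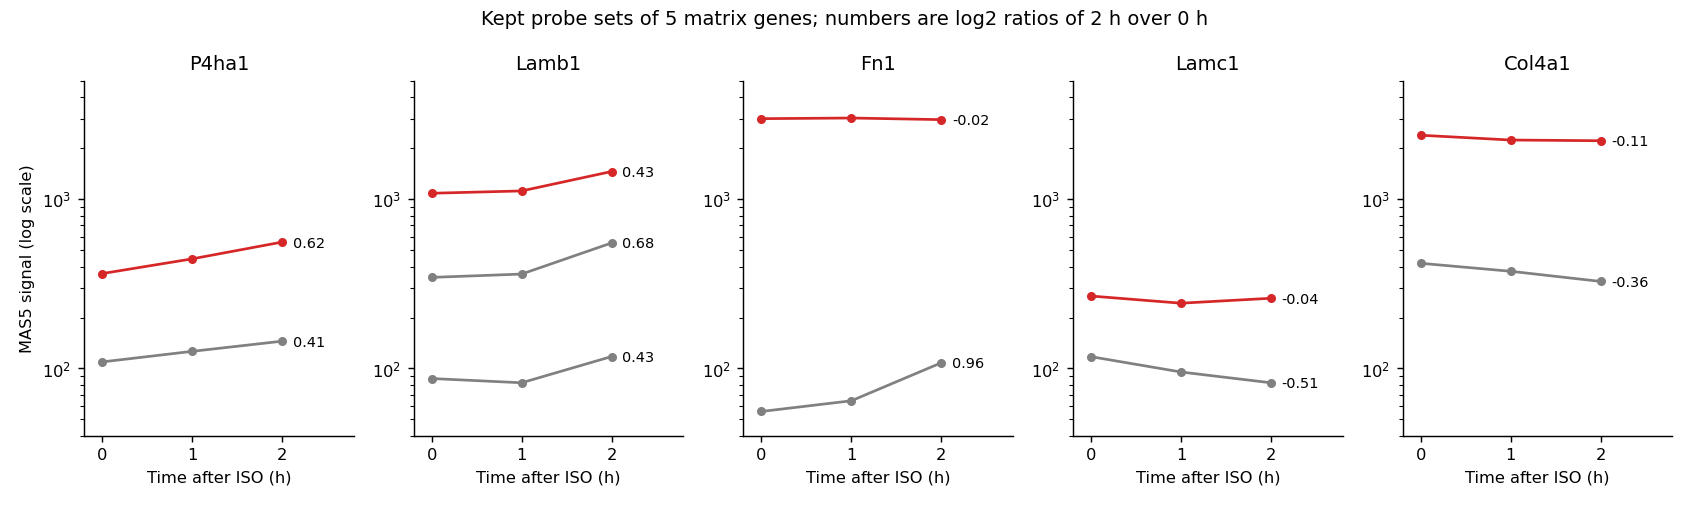
MAS5 signal (vertical axis, log scale) against hours after ISO (horizontal axis) for every probe set of 5 matrix genes that reached 100 on 1 or more arrays, 1 array per time point. The brightest is red and the others grey, and the numbers are log2 ratios of 2 h over 0 h; for Lamb1 they are 0.43, 0.68 and 0.43, and for Fn1 -0.02 on the bright probe set and 0.96 on the dim one.

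Several matrix genes lie next to each other among the protein-coding genes of the mouse genome. Dcn and Lum are neighbours, and they were the genes with the lowest values at 2 h (-0.45 and -0.60). Col6a1 and Col6a2 are neighbours and had -0.19 and -0.18. Col3a1 and Col5a2 had -0.14 and -0.00, and Col4a1 and Col4a2 had -0.11 and 0.00. Shared position and shared course were not tested against other pairs of genes.

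Around the scaffold, 8 lists of matrix-related genes held 109 genes on the array, of which 60 were read. At 1 h 1 of the 60 was called higher and 1 lower, and at 2 h 5 were called higher and none lower, with medians of 0.02 and 0.04. Over all genes read the shares were 1.58% higher and 0.218% lower at 1 h, and 2.73% higher and 0.812% lower at 2 h. None of the 9 other genes of collagen biosynthesis, 4 other basement membrane genes, 8 elastic fibre and microfibril genes, 8 collagen and matrix receptors and 3 matrix metalloproteinases that were read was called at either time. Among the biosynthesis genes P4hb, the partner subunit of prolyl 4-hydroxylase, had signals of 2353.3, 2420.1 and 2338.4, close to level beside the values of P4ha1, and was chosen after its values were seen. Tgm2, a cross-linking transglutaminase, had signals of 1630.8, 1948.5 and 2198.0 and stood at 0.43 at 2 h. Pxdn, the peroxidase that cross-links collagen IV, and Agrn, the proteoglycan agrin, had log2 ratios of -0.34 and -0.30 at 2 h. Ltbp1, which holds latent TGF-β in microfibrils, and Emilin1 and Emilin2, glycoproteins of the elastic fibre surface, had 0.51, -0.34 and 0.46. Of the receptors, Ddr1, a receptor tyrosine kinase for collagen, and Cd44, the hyaluronan receptor, had 0.46 and 0.40, and Itgb1, the β1 integrin chain of the collagen receptors, had 0.14. Mmp2, Mmp11 and Mmp14, the metalloproteinases read, had -0.01, -0.22 and -0.19, so that these enzymes of matrix breakdown were within 0.3 of 0 on all 3 probe sets.

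The genes called were cell-surface proteoglycans, components of TGF-β signalling and 1 matricellular gene. Sdc4 and Sdc1, syndecans that bind matrix through heparan sulphate chains, were higher at 2 h, with log2 ratios of 0.85 and 0.82. Sdc4 had signals of 333.2, 531.1 and 598.8, and Sdc1 had 310.0, 339.9 and 546.8. Gpc1, a glypican, had signals of 56.8, 87.2 and 111.6 and stood at 0.97 at 2 h. These 3 calls were near the threshold: with 32 added to every signal they are 0.79, 0.76 and 0.69, with signals below 100 set to 100 Gpc1 is at 0.16, and Sdc1 is at 0.49 with the median over its probe sets. Of the 10 proteoglycans read on that list 3 were called higher, beside a median of 0.07 and a share of 2.73% over all genes read. Gpc1 exceeded 100 only at 2 h, so it was read through the array that gave its call. No test bears on this small count. Gpc4, another glypican on that list, went the other way without a call, with signals of 299.1, 278.4 and 192.9 and -0.63 at 2 h. Among 8 genes of TGF-β signalling, Skil, a repressor of SMAD activity, was higher at both times (signals of 346.4, 759.4 and 809.4, log2 ratios of 1.13 and 1.22), and Smad3, a mediator of TGF-β, was higher at 2 h (153.3, 219.7 and 299.8, log2 ratio 0.97). Ccn1, a matricellular protein gene, had signals of 381.6, 209.2 and 267.1, was lower at 1 h (-0.87) and had -0.51 at 2 h. That call ends with 32 added to every signal (-0.78) and with arrays scaled to the same median (-0.77). Other choices of probe set gave Ccn1 a larger fall at 1 h. It was -1.16 when its probe sets were summarised by their median, and -1.66 without shared-sequence probe sets. At 2 h these choices gave -0.52 and -0.87. Thbs1, thrombospondin 1, stayed just below the threshold at both times, with 0.74 and 0.78.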

How the data were processed

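Total RNA of iBATs on day 8 of differentiation was hybridized by the authors to Affymetrix arrays of the mouse transcriptome, with 1 array per duration of ISO (0, 1 or 2 h). The authors summarised the scans with MAS5, named in the submitters' processing notes, and deposited 1 linear intensity per probe set and array, scaled so that the mean after 2% was cut from each end is 100.0. The table holds 45101 probe sets without the filter on absent calls, and all its columns of values were used. The number of arrays limits the precision.

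Of the probe sets, 34958 had 1 gene symbol in the array annotation, 932 had several and 9211 were unnamed. Symbols were checked through gene identifiers for 34754, and none changed. Log2 ratios were computed without further scaling with pandas 2.3.3 and numpy 2.4.6 (Python 3.11.15), and signals listed as 0 were given 0.1. The brightest probe set stood for a gene. A call of 1.74-fold is a size, not a test. The robust spread was taken in 20 bins of mean signal. The calculation was tested on simulated data.

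Members and lists were chosen with earlier results of these data known. Values are given for each gene called, the 6 highest and 6 lowest at 2 h, the chains of collagens I, III, IV and VI, members named in the study (none was), and genes whose probe sets differed by 0.5 or more. Further genes were chosen after their values were seen. Of each matrix-related list, called genes and up to 4 members are named, and of the marker lists called genes and some others. The alternatives were 4 other filters, 2 other treatments of low signals, 3 other scalings (same median, quantile, and cyclic loess by limma 3.58.1 under R 4.3.3), 3 other choices of probe set and thresholds of 2-fold and, added after the values were seen, 1.5-fold. Figures were drawn with matplotlib 3.10.9.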

Additional observations from a re-analysis of the deposited data

Results flagged for a closer look

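A probe set of Fn1 that was not the brightest of the gene had a log2 ratio of 0.96 at 2 h over 0 h, a signal in data outside the main measurement. Its signals were 55.7, 64.4 and 108.0 at 0, 1 and 2 h, against 2996.2, 3022.5 and 2956.8 on the probe set used, so that it exceeded 100 on 1 array. There was 1 array per time point, and the difference between the probe sets was not tested.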

How the results depend on the processing

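No paired analysis was possible because each time point had 1 array. With no filter on low signals all 60 genes enter, most of the added ones below a signal of 20, and 8 are called higher and 6 lower at 1 h over 0 h, 7 higher and 5 lower at 2 h over 0 h, and 6 higher and 4 lower at 2 h over 1 h. Of all 18194 genes, 2181 are then called higher and 2188 lower at 1 h over 0 h. The numbers over all genes are 2410 and 2164 at 2 h over 0 h, and 2273 and 1973 at 2 h over 1 h. With any kept probe set 1 gene is called higher at 2 h (Fn1). At a threshold of 1.5-fold, added after the values were seen, 1 gene is called higher (P4ha1) and 1 lower (Lum) at 2 h over 0 h, where 4.13% and 3.13% of all genes are. Lum was read through the 0 h array alone, so the filter favours its fall. Its call ends with low signals raised to the limit for reading (-0.12). Of 84 alternative counts over the matrix genes 75 were 0, but many of these could not have been otherwise. Stricter filters only drop genes, and a threshold of 2-fold only drops calls. Adding 32 or setting signals below 100 to 100 only shrinks a ratio. All 33 alternative medians were within 0.1 of those given, from -0.07 to 0.05 at 1 h and from -0.10 to -0.03 at 2 h. Scaling to the same median moved the median over all genes to 0.08 at 1 h. Filters do not alter a ratio, and neither does a median over 1 kept probe set, so many alternative values repeat the main one. None of 397 alternative values of the named matrix genes passed 1.74-fold. Those of Lamb1 at 2 h reached 0.68 without shared-sequence probe sets, that of P4ha1 was 0.51 and that of Fn1 0.47 with the median over kept probe sets, and that of Lum was -0.12 with signals below 100 set to 100 and -0.44 with 32 added. Of 169 alternative values of the 8 genes called on the matrix-related and the preadipocyte and fibroblast lists, 9 ended a call and none turned its direction. With signals below 100 the ratio is that of a dim probe set, and 1 array per time point leaves its error unknown.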
